A study of Mus musculus with 10 samples.

Results

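The genes described here encode heat shock proteins and chaperones of the endoplasmic reticulum (ER), together with the transcription factors that drive them. There are 42 members among the 46095 gene symbols of the deposited count table, and they were taken by name as 20 cytosolic heat shock genes, 3 mitochondrial chaperone genes and 19 genes of ER folding and ER stress. RNA-seq measured them in C3H10 T1/2 cells, a mouse embryo cell line of mesenchymal character, for which the labels give the strain C57BL/6. That strain label is repeated as given and was not checked here. The cells grew for 48 h on flexible plates coated with type I collagen. The strained group (CMS, 3 libraries) then received cyclic mechanical strain at 0.5 Hz and 10% elongation for 8 h a day over 3 days, and the control group (Ctrl, 3 libraries) was kept static. Chromatin accessibility (ATAC-seq, 50000 cells a library) was measured in unstrained C3H10 T1/2 cells with a CRISPR/Cas9 knockout of the mechanosensitive channel gene Piezo1 (Piezo1 KO, 2 peak lists) and in GFP control cells (GFP, 2 peak lists). The sources used here do not give whether the knockout is a clone or a pool, or whether a group's replicates were grown apart. The p-values therefore speak only of variation among these libraries, part of which may be technical. Piezo1 transcript in the knockout was not analysed here, because the RNA-seq libraries hold no knockout.

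Chaperones hold, fold or refold other proteins. In the cytosol, the factor Hsf1 is kept inactive in the resting cell, and when unfolded proteins build up it forms trimers, binds heat shock elements in DNA and switches on Hsp70, Hsp90, J-domain and small heat shock genes. In the ER, the chaperone BiP holds back the sensors Atf6, Ire1 and Perk, and their release raises ER chaperones through Atf6, Xbp1 and Atf4, the unfolded protein response. Fibroblastic cells that secrete collagen carry a heavy load of protein folding in the ER, and both systems are known to answer to stress of many kinds.

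The RNA-seq libraries held 37233101 to 41024689 counts in the strained group and 36150738 to 38491897 in controls. Among the strained libraries, strain replicate 1 stood apart: its counts gave a chi-square, divided by the degrees of freedom, of 44.3 and 34.7 against strain replicates 2 and 3, and those gave 15.7 between them. Control replicate 3 stood apart in the same way, at 37.5 and 59.6 against control replicates 1 and 2, with 9.19 between those. Markers of mesenchymal cells summed to 58480 to 69797 CPM (counts scaled to the size of the library) in strained libraries and 79331 to 87747 CPM in controls, and 4 of the 6 tested were lower (Col1a1, Col1a2, Col3a1 and Vim), while Thy1 was at or near 0 in all 6 libraries. Over all genes tested, 7.39% were called lower. The other tested mesenchymal markers, Pdgfrb and Fn1, were not called (log2 fold change −0.04 and 0.18, edgeR adjusted p = 0.866 and 0.421). The mean of Fn1 was 25452 CPM in strained libraries and 22426 CPM in controls. The call of Vim was lost when any library other than control replicate 2 was left out (edgeR adjusted p up to 0.0973). Epcam, Cdh5 and Ptprc, which define epithelial, endothelial and blood cells, were at 0 in all 6 libraries, and those 3 lists summed to at most 8.49 CPM in any library. Cdh1, the only epithelial marker that passed the filter, was lower at 1.1, 2.62 and 2.35 CPM in strained cells, against 8.44, 8.03 and 6.23 CPM in controls (log2 fold change −1.91, edgeR adjusted p = 0.00211), and the part of these markers in the results below was not tested. In bulk libraries such as these, fewer cells of a type and less RNA per cell cannot be told apart. Levels below are CPM after TMM scaling, which are not per length and so are compared only within a gene.

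Few members were called under strain. Of the 42, 40 passed the filter on low counts, and at a Benjamini-Hochberg adjusted p under 0.05 in edgeR's quasi-likelihood test 3 were higher in strained cells (Hsph1, Hspa4l and Hyou1) and 1 was lower (Hsp90b1). Over all 15335 genes tested, 5.94% were called higher and 7.39% lower, so that 3 of 40 is close to the share of all genes and 1 of 40 is below it. In the same test 11 of 40 members had an unadjusted p under 0.05, beside 4544 of all 15335 genes. The cytosolic list had 2 higher and 0 lower of 18 tested, the ER list 1 higher and 1 lower of 19, and the mitochondrial list none of 3 in either direction, with none of the 3 at an unadjusted p under 0.05 and none called by DESeq2 or limma-voom. The median log2 fold change, strained over control, was 0.31 for the cytosolic list, 0.06 for the mitochondrial list and 0.12 for the ER list, beside 0.00 over all genes. The fold change was above 0 for 15 of 18 cytosolic, 3 of 3 mitochondrial and 11 of 19 ER genes, beside 7759 of all 15335. Without strain replicate 1, 4.99% of genes were called higher and 6.59% lower, 4 members were higher (Hsph1, Hspa4l, Hyou1 and Sdf2l1) and 1 was lower (Xbp1), and the medians were 0.05, −0.02 and 0.08. Without strain replicate 1 and control replicate 3 together, 7 members were higher and 2 lower. In that fit 1509 genes were higher and 1601 lower, of the 15274 also tested with all libraries. Differences between the compartments were not tested.

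**Figure D1:**
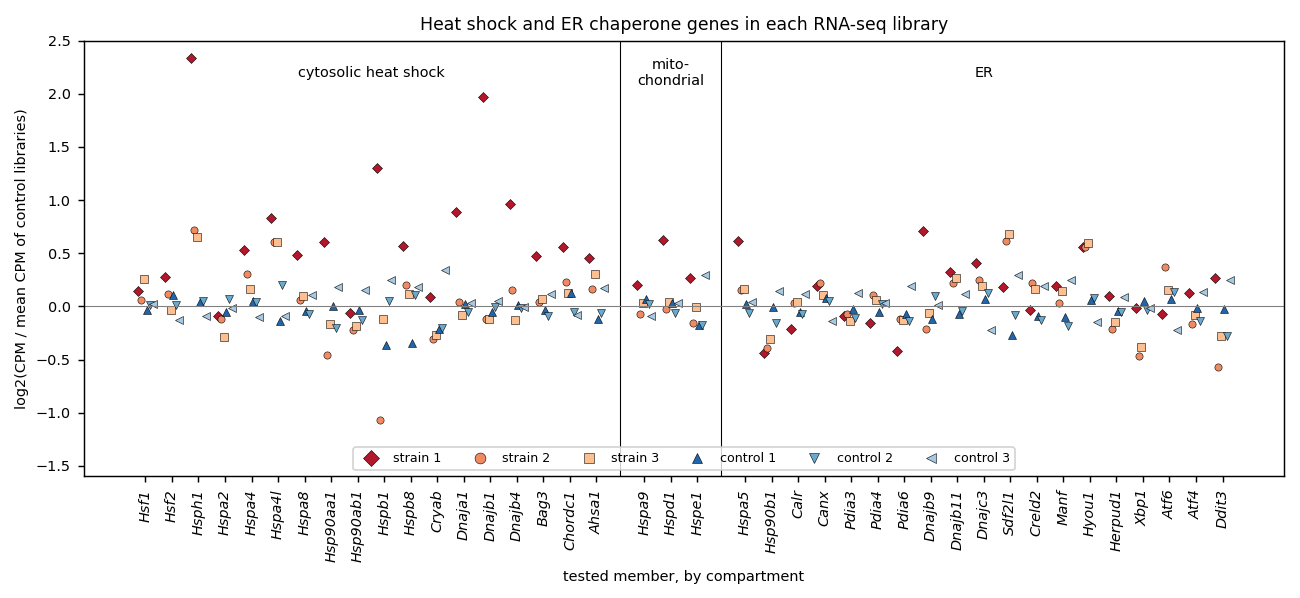
Each tested member in each RNA-seq library, as the log2 ratio of its CPM to the mean CPM of the 3 control libraries, grouped by compartment. Strain replicate 1 (dark red diamonds) lies far above the other libraries for Hsph1, Dnajb1 and Hspb1 and above them for most of the cytosolic list, while the ER genes are spread on both sides of 0.

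The feature that most members of the cytosolic list shared was a high level in strain replicate 1. Strain replicate 1 was the highest of the 6 libraries for 14 of 18 cytosolic, 2 of 3 mitochondrial and 6 of 19 ER genes, and over all genes for 19.2%. Its CPM was over 1.5 times the mean of strain replicates 2 and 3 for 9 of 40 members, against 7.05% of all genes: 6 cytosolic (Dnajb1, Hspb1, Hsph1, Dnajb4, Hsp90aa1 and Dnaja1), 1 mitochondrial (Hspd1) and 2 ER genes (Dnajb9 and Ddit3). No member was below that mean by the same factor, against 6.6% of all genes. Outside the members, the ratio was over 1.5 for 3 of 14 integrated stress response genes (Nupr1, Atf3 and Ppp1r15a). It was also over 1.5 for 2 of 23 co-chaperones and other cytosolic chaperones, and for 0 of 8 subunits of the cytosolic chaperonin TRiC. The median of this ratio was 1.31 over the cytosolic list, 1.27 over the mitochondrial list, 1.02 over the ER list and 0.998 over all genes. Seen library by library, the median log2 ratio of the cytosolic list to the control mean was 0.54 in strain replicate 1, 0.06 in strain replicate 2 and 0.01 in strain replicate 3. For the ER list the same medians were 0.13, 0.03 and 0.06. In control replicates 1, 2 and 3 the medians were −0.03, −0.01 and 0.04 for the cytosolic list. Those of the ER list were −0.03, −0.06 and 0.11, so control replicate 3 came close to strain replicate 1 there. Strain replicate 1 was the highest strained library for 17 of 18 cytosolic genes, and among ER genes it was the highest for 9 and the lowest for 7. What set strain replicate 1 apart was not tested, and the labels give no batch or date for it.

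**Figure D2:**
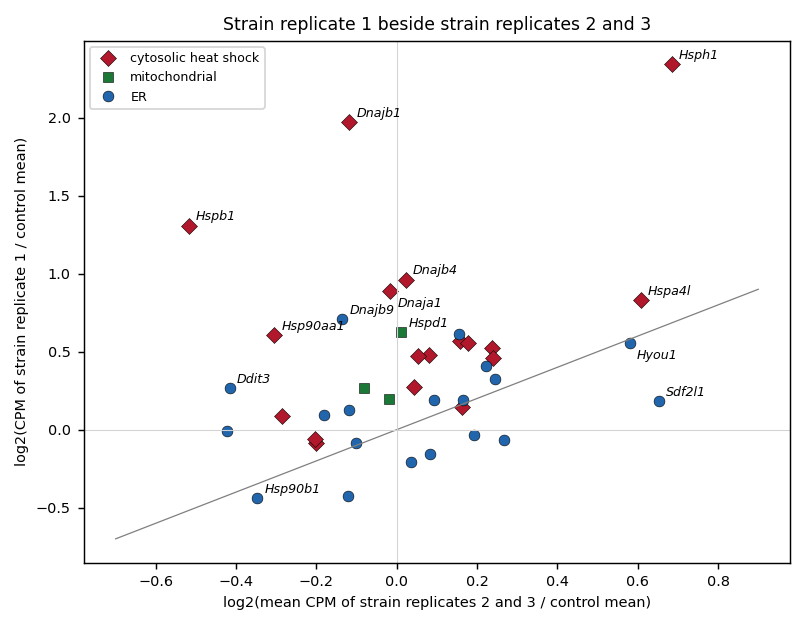
Strain replicate 1 (vertical axis) against the mean of strain replicates 2 and 3 (horizontal axis) for the 40 tested members, both as the log2 ratio of CPM to the control mean, with the line of equality in grey. Dnajb1, Hspb1, Dnajb4, Dnaja1, Hsp90aa1 and Hspd1 are raised only on the vertical axis, Hsph1 is raised on both, and Hyou1 lies close to the line.

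The heat shock factors themselves were not called. Hsf1, the main activator of the heat shock response, had 71.0, 66.8 and 77.1 CPM in strained cells, against 62.6, 64.8 and 65.5 CPM in controls. The groups did not overlap, but the log2 fold change of 0.16 ± 0.10 (SE) was not called (edgeR adjusted p = 0.315). Hsf2, a related factor, had 18.5 to 23.0 CPM in strained cells and 17.4 to 20.5 CPM in controls, which overlapped. The 3 strained libraries lay above all 3 controls for 10 of 40 members and below them for 2, against 17.4% and 17.9% of all genes.

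The Hsp110 family, which exchanges nucleotide on Hsp70 so that it can release its client, held the 2 cytosolic calls. Hsph1 (chr5:149616843-149636498, GRCm38.p6, minus strand) had 216, 70.0 and 67.1 CPM in strained cells, against 43.8, 44.2 and 40.0 CPM in controls. Every strained library lay above every control, and strain replicate 1 was 3.15 times the mean of the others. The log2 fold change was 1.47 ± 0.38 (SE; edgeR adjusted p = 0.0297). Without strain replicate 1 it was 0.68 and still called (adjusted p = 0.00556), whereas leaving out control replicate 1 (adjusted p = 0.0772) or control replicate 3 (adjusted p = 0.0784) ended the call. Hspa4l (chr3:40744500-40796103, GRCm38.p6), the family member best known from testis, had 14.9, 12.8 and 12.8 CPM in strained cells, against 7.63, 9.69 and 7.91 CPM in controls. All 3 strained libraries were above the controls and close to each other. Its log2 fold change was 0.69 ± 0.14 (SE; edgeR adjusted p = 0.0122), 0.61 without strain replicate 1 (adjusted p = 0.0344), and not called without control replicate 1 (adjusted p = 0.0679). Hspa4, of the same family, had 358, 307 and 278 CPM in strained cells and 258, 256 and 231 CPM in controls. Those groups did not overlap, and the difference of 0.34 ± 0.11 was not called (edgeR adjusted p = 0.0740), though DESeq2 called it (adjusted p = 0.0385).

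Over the 6 libraries, the genes whose log2(CPM + 1) followed Hsph1 most closely by Pearson's r were Dnaja2 (r = 0.999), Gpr174 (0.995), Mir22hg (0.990), Trim69 (0.990) and Atg12 (0.989). Dnaja2, a J-domain co-chaperone that is not among the members, had 204, 169 and 167 CPM in strained cells, against 158, 157 and 155 CPM in controls. The 6 points share the library that stands apart, Gpr174 and Trim69 lay under 1 CPM in every library, and of the 5 only Gpr174 was called (log2 fold change 2.51, edgeR adjusted p = 0.0293).

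The inducible Hsp70 genes Hspa1a and Hspa1b gave the widest contrast between replicates, at very low counts. Hspa1a had 58, 4 and 9 counts in strained libraries, against 4, 3 and 2 counts in controls. Hspa1b had 70, 17 and 1 counts in strained libraries, against 6, 6 and 4 in controls. Strain replicate 1 held 58 of the 71 strained counts of Hspa1a and 70 of the 88 of Hspa1b, and neither gene passed the filter. The 2 genes are near copies of each other (their 300-base promoters are identical at 296 bases, 98.7%), so how the authors' counting split or dropped shared reads bears on both values, and they are uncertain. With no filter on low counts edgeR called both (log2 fold change 2.76, adjusted p = 0.00287, and 2.28, adjusted p = 0.00575). The same fit also called Dnajb1 (edgeR adjusted p = 1.9e-05), whose strain replicates 2 and 3 lay below every control. A call in that fit can therefore rest on strain replicate 1. DESeq2 called Hspa1a (adjusted p = 0.0301) but not Hspa1b (adjusted p = 0.0778). Hspa8, the constitutive Hsp70, had 1340, 1005 and 1026 CPM in strained cells, against 935, 914 and 1034 CPM in controls, and overlapped between the groups. Hspa2, an Hsp70 of germ cells, had 24.5, 24.0 and 21.3 CPM in strained cells and 25.0, 27.2 and 25.8 CPM in controls, which is below the controls in every strained library but not called (edgeR adjusted p = 0.357).

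J-domain proteins hand clients to Hsp70 and stimulate its ATPase. Dnajb1, the classic heat-induced one, had 202, 47.3 and 47.6 CPM in strain replicates 1, 2 and 3, against 49.8, 51.3 and 53.4 CPM in controls. Strain replicate 1 was thus 4.26 times the mean of the other strained libraries, the largest such ratio of the 40 tested members, while strain replicates 2 and 3 lay below every control. The log2 fold change of 0.94 ± 0.46 (SE) was not called (edgeR adjusted p = 0.199), and without strain replicate 1 it was −0.12. Dnaja1 had 186, 103 and 95.0 CPM in strained cells, against 102, 96.8 and 102 CPM in controls. Dnajb4 had 55.1, 31.6 and 25.9 CPM in strained cells, against 28.6, 28.1 and 28.3 CPM in controls. In both genes strain replicate 1 was the highest of the 6 libraries and the other strained libraries lay on either side of the controls, and the log2 fold changes without strain replicate 1 were −0.02 for Dnaja1 and 0.02 for Dnajb4.

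Hsp90 stabilises kinases and receptors late in their folding. Hsp90aa1, its inducible form, had 550, 263 and 322 CPM in strained cells, against 361, 313 and 410 CPM in controls. Strain replicate 1 was the highest of the 6 libraries and strain replicate 2 the lowest, so that the log2 fold change of 0.07 ± 0.23 became −0.31 without strain replicate 1, not called in either fit (edgeR adjusted p = 0.875 and 0.184). Hsp90ab1, the constitutive form, had 2563, 2284 and 2351 CPM in strained cells, against 2610, 2434 and 2960 CPM in controls. Of the Hsp90 co-chaperones, Chordc1 had 48.8, 38.9 and 36.2 CPM in strained cells, against 36.1, 32.0 and 31.4 CPM in controls. Ahsa1, which activates the Hsp90 ATPase, had 140, 114 and 126 CPM in strained cells, against 93.8, 97.5 and 115 CPM in controls. Neither was called (edgeR adjusted p = 0.136 and 0.0980), and Ahsa1 was called without control replicate 3 (0.41, adjusted p = 0.0385).

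Small heat shock proteins hold unfolding proteins without using ATP. Hspb1 had 6.92, 1.34 and 2.57 CPM in strain replicates 1, 2 and 3, against 2.17, 2.89 and 3.33 CPM in controls. The log2 fold change was 0.37 ± 0.47 (SE) with all libraries and −0.51 without strain replicate 1, and neither was called (edgeR adjusted p = 0.639 and 0.330). Cryab, the lens crystallin that many cells express under stress, had 86.9, 66.0 and 67.8 CPM in strained cells, against 70.5, 70.8 and 104 CPM in controls. Hspb8 had 16.4, 12.7 and 11.9 CPM in strained cells, against 8.67, 11.9 and 12.5 CPM in controls. Bag3, which works with Hspb8 to direct damaged cytoskeletal proteins to autophagy, had 116, 85.8 and 87.3 CPM in strained cells, against 81.7, 78.4 and 90.3 CPM in controls. These 4 genes each had their highest strained value in strain replicate 1, and the groups overlapped in all 4.

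**Figure D3:**
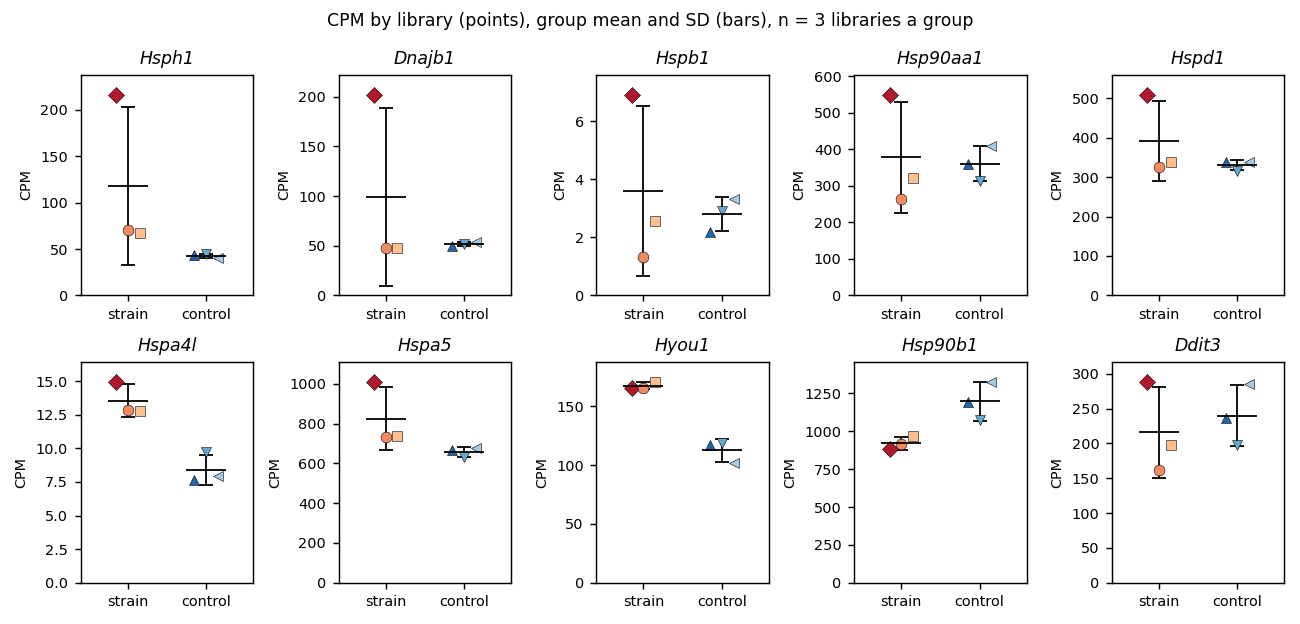
CPM in each library for 10 members, with strained libraries left of controls; bars are the group mean ± SD (n = 3 libraries each). Strain replicate 1 (dark red diamond) is apart in Hsph1, Dnajb1, Hspb1, Hsp90aa1 and Hspd1, whereas in Hyou1 and Hsp90b1 the 3 strained libraries lie close together and do not overlap the controls.

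Heat shock elements were looked for in the promoters of these genes, since Hsf1 binds inverted repeats of the unit GAA. RefSeq promoters (GRCm38.p6, 250 bases before the start and 50 after it) were available for 33 of the 42 members. Hsf1, Hspa8, Hsp90aa1, Hsp90ab1, Cryab, Hspa9, Hyou1, Manf and Atf6 had no entry. The 3-unit element, GAANNTTCNNGAA on either strand, was found in 4 members, Hsph1, Chordc1, Hspd1 and Hspe1, and in 0.662% of the 27025 genes with a promoter. A pair of units in either order (GAANNTTC or TTCNNGAA, each of which lies inside the longer element) was found in 9 of 15 cytosolic promoters, 2 of 2 mitochondrial promoters and 0 of 16 ER promoters, beside 17.0% of all genes. The stretches below show the full element in Hsph1, Chordc1 and Hspe1, and the pair of units in Hspb1 and Hspa1b, which had higher ratios in strain replicate 1 than Dnaja1 and Dnajb4, where a pair begins at positions −124 and −14 from the start. They are written 5′ to 3′ on the strand of the gene, with the matched elements in capitals.
Hsph1, chr5:149636283-149636305, minus strand: gcagaTTCTGGAAAGTTCtcctc
Chordc1, chr9:18292260-18292288, plus strand: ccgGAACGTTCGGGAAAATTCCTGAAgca
Hspe1, chr1:55088049-55088086, plus strand: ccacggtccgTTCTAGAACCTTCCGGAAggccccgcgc
Hspb1, chr5:135887792-135887839, plus strand: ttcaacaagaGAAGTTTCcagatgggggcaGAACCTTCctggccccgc
Hspa1b, chr17:34959325-34959352, minus strand: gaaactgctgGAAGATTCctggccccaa

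With the start base counted as 0, the Hsph1 element begins at position 15 from the start at base 149636315, and the 3 overlapping matches of Chordc1 begin at position −4. Hspd1 and Hspe1 are transcribed away from each other, and the stretch printed for Hspe1 is the same DNA that holds both matches of Hspd1 on the other strand. Hspb1 has 2 separate pairs of units. The Hspa1b stretch is letter for letter that of Hspa1a. A high strain replicate 1 was seen with and without a match: Dnajb1 (ratio 4.26) had no match to these letters in its window, and Chordc1 (ratio 1.30), with 3 overlapping matches, stayed under 1.5. Bag3 (ratio 1.34) and Hspb8 (ratio 1.33), each with a pair of units, stayed under 1.5 too. The ratio of Hspa1b rests on 70, 17 and 1 counts in strain replicates 1, 2 and 3. A match describes these letters only and was not tested as a binding site.

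No mitochondrial chaperone was called. Hspd1 and Hspe1 form the chaperonin barrel and its lid, and Hspa9 (mortalin) is the Hsp70 of the matrix. Hspd1 had 509, 325 and 339 CPM in strain replicates 1, 2 and 3, against 337, 315 and 338 CPM in controls. Hspe1 had 239, 178 and 198 CPM in strained cells, against 176, 176 and 244 CPM in controls. Hspa9 had 1416, 1173 and 1261 CPM in strained cells, against 1293, 1252 and 1155 CPM in controls. In all 3 the groups overlapped, and the log2 fold changes were 0.25 ± 0.16, 0.04 ± 0.15 and 0.06 ± 0.11 (SE), or 0.01, −0.08 and −0.02 without strain replicate 1. All 3 genes have processed copies elsewhere in the genome, and the handling of reads shared with them is not given in the sources used here.

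Of the 40 tested members, the lowest adjusted p was that of Hyou1 (chr9:44379490-44392369, GRCm38.p6), the large Hsp70-like protein that exchanges nucleotide on BiP. Hyou1 had 166, 166 and 171 CPM in strained cells, against 117, 119 and 101 CPM in controls. The strained libraries, strain replicate 1 included, agreed closely and all lay above the controls. The log2 fold change was 0.57 ± 0.10 (SE; edgeR adjusted p = 0.00424), 0.58 without strain replicate 1, and it stayed called whichever library was left out (adjusted p up to 0.0305). Hsp90b1 (Grp94; chr10:86690841-86705444, GRCm38.p6), the Hsp90 of the ER, had 884, 914 and 968 CPM in strained cells, against 1194, 1073 and 1326 CPM in controls. All strained libraries lay below all controls, and the log2 fold change was −0.38 ± 0.11 (SE; edgeR adjusted p = 0.0450). That call was lost when any library other than control replicate 2 was left out (adjusted p 0.0770 to 0.146) and with scaling by library size alone (adjusted p = 0.0572).

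Hspa5 (BiP), the Hsp70 of the ER and the usual readout of ER stress, had 1010, 731 and 736 CPM in strained cells, against 668, 630 and 679 CPM in controls. The groups did not overlap, and strain replicate 1 lay well above the rest. Its log2 fold change of 0.33 ± 0.13 (SE) was not called (edgeR adjusted p = 0.132), and was 0.15 without strain replicate 1. The J-domain partners of BiP were uneven. Dnajb11 had 121, 113 and 116 CPM in strained cells, against 91.8, 93.8 and 105 CPM in controls, and Dnajc3 had 90.1, 80.8 and 77.4 CPM in strained cells, against 71.4, 73.9 and 58.3 CPM in controls. Both lay above the controls in every strained library without a call (edgeR adjusted p = 0.0871 and 0.132), and Dnajb11 was called without control replicate 3 (0.33, adjusted p = 0.0413). Dnajb9 had 27.8, 14.7 and 16.3 CPM in strain replicates 1, 2 and 3, against 15.7, 18.2 and 17.2 CPM in controls. That placed strain replicate 1 above the controls and strain replicate 2 below them.

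Sdf2l1, which joins Dnajb11 in a complex with BiP, went the other way in strain replicate 1. It had 25.8 CPM there, then 34.9 and 36.6 CPM in the other strained libraries, against 18.8, 21.5 and 27.9 CPM in controls. The log2 fold change of 0.51 ± 0.17 (SE) was not called (edgeR adjusted p = 0.0745), but it was called without strain replicate 1 (0.65, adjusted p = 0.0379), without control replicate 3 (0.69, adjusted p = 0.0239) and by DESeq2 (0.52, adjusted p = 0.0327). Creld2 and Manf, small secreted proteins that ER stress induces, had 41.7 to 49.8 and 84.6 to 94.3 CPM in strained cells, against 39.1 to 49.0 and 72.5 to 98.1 CPM in controls. Both overlapped.

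The lectin chaperones and oxidoreductases that fold glycoproteins gave no call. Calr had 912, 1078 and 1084 CPM in strained cells, against 1015, 1002 and 1146 CPM in controls. Canx had 613, 626 and 581 CPM in strained cells, against 568, 558 and 490 CPM in controls, above the controls in each strained library but not called (edgeR adjusted p = 0.279). Pdia4 had 241, 288 and 280 CPM in strained cells, against 258, 272 and 274 CPM in controls. For Pdia3 the ranges were 687 to 719 CPM in strained cells and 699 to 824 CPM in controls, and for Pdia6 392 to 485 CPM in strained cells and 478 to 601 CPM in controls. The groups of Calr, Pdia3, Pdia4 and Pdia6 overlapped, and Calr, Pdia4 and Pdia6 each had their lowest strained value in strain replicate 1, opposite to the cytosolic genes.

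The regulators of the unfolded protein response gave no call with all libraries. Xbp1, the transcription factor that Ire1 splices into its active form, had 102, 74.5 and 79.3 CPM in strained cells, against 107, 100 and 102 CPM in controls. Strain replicates 2 and 3 lay below every control and strain replicate 1 among them. The log2 fold change was −0.27 ± 0.13 (SE; edgeR adjusted p = 0.175), and −0.42 without strain replicate 1, where it was called (adjusted p = 0.0283). Atf6, the factor released by cleavage, had 64.2 to 87.0 CPM in strained cells and 57.6 to 73.9 CPM in controls. Atf4, the factor whose translation rises when eIF2α is phosphorylated, had 478, 391 and 414 CPM in strained cells, against 434, 398 and 482 CPM in controls. Its target Ddit3 (Chop) had 288, 161 and 197 CPM in strained cells, against 236, 198 and 285 CPM in controls, so that the strained group held both the highest and the lowest library. Herpud1, which helps remove misfolded proteins from the ER, had 139, 112 and 118 CPM in strained cells, against 127, 126 and 139 CPM in controls. Counts per gene do not show splicing of Xbp1, cleavage of Atf6 or translation of Atf4.

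**Figure D4:**
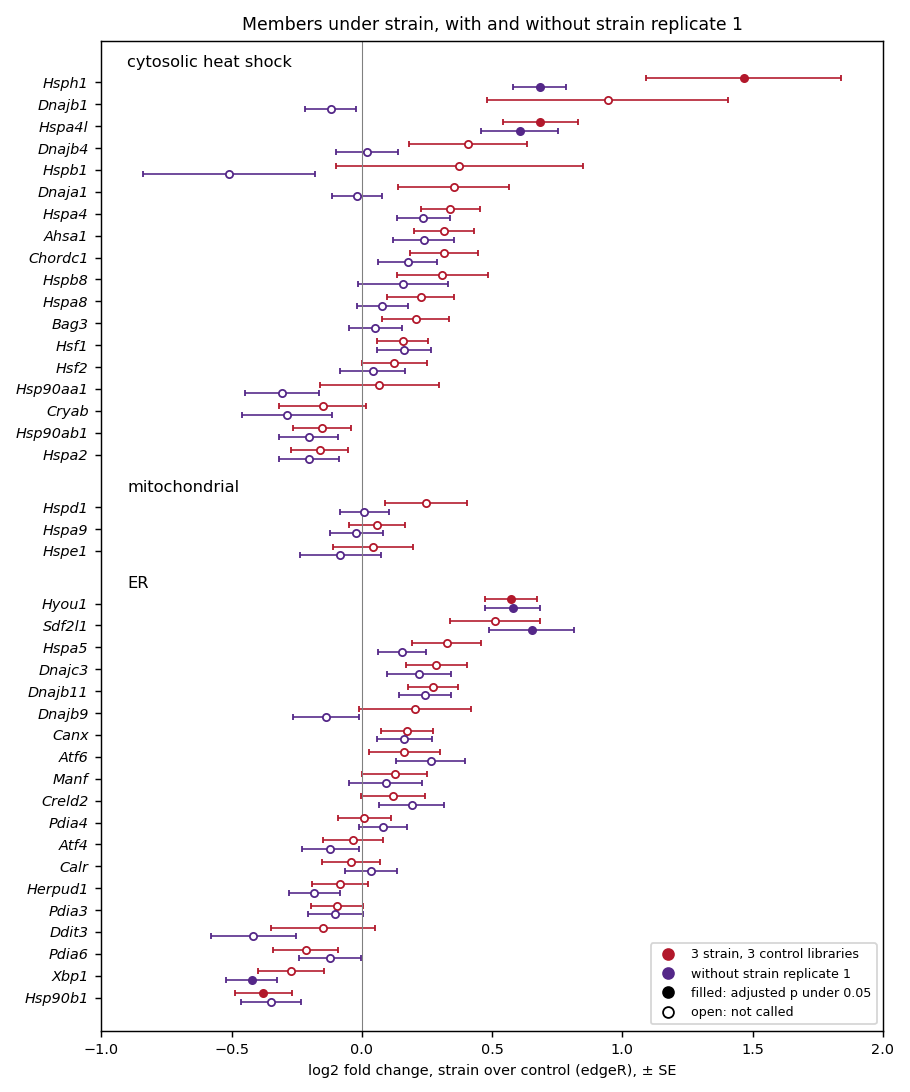
Log2 fold change ± SE of each tested member, strained over control, by edgeR with all 6 libraries (red) and without strain replicate 1 (purple); filled points have an adjusted p under 0.05. Leaving strain replicate 1 out moves Dnajb1, Hspb1, Dnajb4, Dnaja1 and Hsp90aa1 close to 0 or below it, while Hspa4l and Hyou1 stay where they were.

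ER chaperone promoters are known for the ER stress response element, a CCAAT box that binds NF-Y and, after 9 bases, the letters CCACG that Atf6 and Xbp1 recognise. That element, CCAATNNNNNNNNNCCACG on either strand, was found in 7 of the 16 ER members with a promoter (Hspa5, Hsp90b1, Calr, Canx, Pdia6, Dnajc3 and Creld2) and in 0.137% of all genes. It was found in 0 of 15 cytosolic and 0 of 2 mitochondrial promoters. The shorter second form, ATTGGNCCACG, was found in Dnajb11 and Herpud1 and in 0.0444% of all genes. A CCAAT box alone was in 15 of 16 ER promoters, 7 of 15 cytosolic promoters and 41.1% of all genes; it is contained in the first element and, on the other strand, in the second. The letters TGATGNAAT, of the kind Atf4 binds, were in 0 of 33 members and 1.08% of all genes. Of these 9 members, 5 are shown, with the elements in capitals on the strand of the gene: Hspa5 and Hsp90b1, whose strained libraries lay above and below the controls, Calr and Pdia6, whose groups overlapped, and Herpud1 for the second form.
Hspa5, chr2:34772015-34772053, plus strand: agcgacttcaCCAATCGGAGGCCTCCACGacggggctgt
Hsp90b1, chr10:86705523-86705666, minus strand: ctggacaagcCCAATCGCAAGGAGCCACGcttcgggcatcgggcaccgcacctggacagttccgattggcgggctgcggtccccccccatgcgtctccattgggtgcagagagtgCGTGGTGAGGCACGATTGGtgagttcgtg
Calr, chr8:84847065-84847103, minus strand: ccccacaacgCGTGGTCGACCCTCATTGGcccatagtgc
Pdia6, chr12:17266481-17266519, plus strand: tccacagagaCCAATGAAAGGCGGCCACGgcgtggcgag
Herpud1, chr8:94386367-94386397, plus strand: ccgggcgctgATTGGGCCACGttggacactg

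Hsp90b1 carries the element on both strands, beginning at positions −212 and −107 from its start, and Hspa5 carries it from position −65. Hsp90b1, with 2 matches, was lower in strained cells, a call lost when any library other than control replicate 2 was left out. Hspa5, with 1 in this window, lay above the controls without a call. Whether the element had a part in either value was not tested. The 7 genes with the element had log2 fold changes from −0.38 (Hsp90b1) to 0.33 (Hspa5).

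Other genes of these pathways were read from the same fit, which called 5.94% of all genes higher and 7.39% lower. Of 23 co-chaperones and other cytosolic chaperones (Stip1, Fkbp4 and Stub1 among them) edgeR called 0, with 4 at an unadjusted p under 0.05, 2 called by DESeq2 and none by limma-voom. Of the 8 subunits of the cytosolic chaperonin TRiC, Tcp1 was lower, at 318, 298 and 313 CPM in strained cells against 394, 361 and 431 CPM in controls (log2 fold change −0.35, edgeR adjusted p = 0.0451), and that call was lost when any library other than control replicate 2 was left out (adjusted p up to 0.154). Of 11 further mitochondrial quality control genes edgeR called 0, with 2 at an unadjusted p under 0.05 and none called by DESeq2 or limma-voom. Of 14 integrated stress response genes 1 was lower, Nupr1, at 162, 93.1 and 104 CPM in strained cells against 194, 168 and 233 CPM in controls (−0.73, adjusted p = 0.0365), lost without strain replicate 2 or 3 or control replicate 1 or 3 (adjusted p up to 0.125).

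Several ER enzymes outside the member list were called. Ero1l, the oxidase that recharges protein disulfide isomerases, had 138, 118 and 117 CPM in strained cells, against 389, 320 and 311 CPM in controls. Every strained library was far below every control, and its log2 fold change was −1.45 ± 0.12 (SE; edgeR adjusted p = 6.9e-05). It was called whichever library was left out (adjusted p up to 0.00115). Wfs1, an ER membrane protein mutated in Wolfram syndrome, had 65.4, 67.2 and 71.5 CPM in strained cells, against 36.9, 42.6 and 34.5 CPM in controls (log2 fold change 0.84 ± 0.11, adjusted p = 0.000996, up to 0.00955 with a library left out). Uggt1, which returns unfolded glycoproteins to calreticulin and calnexin, was also higher, at 210, 231 and 215 CPM in strained cells against 161, 167 and 129 CPM in controls (0.52, adjusted p = 0.0151), a call lost without strain replicate 2 or 3 (adjusted p up to 0.0646). Hspa13 (0.52, adjusted p = 0.0425) was higher and Os9 (−0.35, adjusted p = 0.0455) was lower, and both lost their call when any library other than control replicate 2 was left out (adjusted p up to 0.149 and 0.154). In all, 3 of 23 tested genes of ER folding and degradation were higher and 2 lower, beside 5.94% and 7.39% of all genes. Over the 23 the log2 fold change had a median of 0.10. Derl3 did not pass the filter.

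The collagen-folding enzymes of the ER were lower where they were called. P4ha2, a catalytic subunit of prolyl 4-hydroxylase, had 341, 389 and 424 CPM in strained cells, against 689, 642 and 734 CPM in controls. It was lower in every strained library, by a log2 fold change of −0.84 ± 0.11 (SE; edgeR adjusted p = 0.00108, up to 0.00819 with a library left out). P4ha1, the other main catalytic subunit, had 518, 530 and 497 CPM in strained cells, against 699, 685 and 740 CPM in controls (−0.46, adjusted p = 0.0103), a call lost without strain replicate 3 or control replicate 1 (adjusted p up to 0.0602). Their partner P4hb, which is also a protein disulfide isomerase, had 1535, 1753 and 1791 CPM in strained cells, against 2240, 2064 and 2432 CPM in controls (−0.41, adjusted p = 0.0361), and its call was lost when any library other than control replicate 2 was left out (adjusted p up to 0.125). By edgeR the other 7 of the 10 genes were not called (DESeq2 called 4 of the 10 and limma-voom 3), among them Serpinh1, the collagen chaperone, at 2593 to 2689 CPM in strained cells and 2719 to 3118 CPM in controls. Of the 10, 3 were called lower, beside 7.39% of all genes, and the median log2 fold change was −0.27. Col1a1, Col1a2 and Col3a1, the collagens these enzymes modify, were lower in the same libraries (log2 fold changes −0.70, −0.55 and −0.92, edgeR adjusted p up to 0.00734).

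Chromatin accessibility at the members' starts was read from the authors' deposited peak lists for Piezo1 KO and GFP cells, neither of them strained. A peak within 1 kb of the RefSeq start was present for 29 and 28 of 33 members in the Piezo1 KO lists, and for 30 and 31 in the GFP lists. Over all genes the shares were 25.8% and 25.7% in Piezo1 KO lists and 24.6% and 32.7% in GFP lists. Those shares take in genes with little or no RNA, whereas 40 of the 42 members passed the RNA filter on low counts. Shares among expressed genes alone were not computed. The lists were of unequal length (15980 and 13610 peaks in Piezo1 KO, 15978 and 26652 in GFP), read depth is unknown, and with 2 lists a group no test was made. Of the 33, 28 members had a peak in all 4 lists, and Hspa1a and Atf4 had none in any. The promoters of Hspa1a and Hspa1b are near copies, so the handling of shared reads bears on the missing Hspa1a peak, which is uncertain. Hspa4l had a peak only in the 2 GFP lists, Hspb8 in Piezo1 KO replicate 1 and both GFP lists, and Hspb1 only in GFP replicate 2, the longest list. The Hspa4l peaks were weak, with a −log10 q of 4.93 and 6.30 in GFP replicates 1 and 2. Neither GFP list held one at a −log10 q of at least 10. Within 250 bp of the start, GFP replicate 1 held none.

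The fold enrichment that the authors' peak caller gave at Hsph1 was 10.6 and 10.8 in Piezo1 KO lists and 8.27 and 11.1 in GFP lists. At Hspa5 it was 8.76 and 7.27 in Piezo1 KO lists and 7.09 and 8.76 in GFP lists. Dnajb1 had 6.02 and 6.58 in Piezo1 KO lists and 6.30 and 7.51 in GFP lists. In all 3 the ranges of the 2 genotypes overlapped. At Pdia4, Xbp1, Herpud1, Dnajb11 and Hspa1b they did not, and both GFP values were the higher. Pdia4 had 7.21 and 7.28 in Piezo1 KO lists, against 9.11 and 10.8 in GFP lists. No member with a peak in all 4 lists had both Piezo1 KO values above both GFP values. The share of all genes with such a gap was not computed, and the difference was not tested. At Hspb1 the sole peak had a fold enrichment of 4.76. The peaks of Hspa4l had 4.55 and 4.84 in GFP lists. Each lay below the Hsph1 peak of the same list. Hsph1, Chordc1, Hspd1 and Hspe1, whose 3-unit heat shock elements are printed above, had a peak in all 4 lists, and Hspa5 and Hsp90b1 had one too. In each list Hspd1 and Hspe1 shared 1 peak, which was counted for both genes here and among the 28.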

How the data were processed

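Messenger RNA was amplified as full-length cDNA with a kit made for single cells, for 3 strained and 3 static libraries, per the labels' protocols. Whole-number counts per gene were deposited by the authors. STAR and HTSeq for RNA-seq, Bowtie2 2.4.2 and MACS2 for ATAC-seq, and Trim Galore 0.6.5 and the build mm10 for both are named in the submitters' processing notes, which also name DESeq2. Strand setting, treatment of reads that map to several genes and peak thresholds were not stated in the sources used here. The deposited peak lists give a fold enrichment (ratio), a −log10 p and a −log10 q per peak, all the authors' own, with peaks called per sample.

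Libraries were grouped by their GEO labels. Counts were filtered with filterByExpr (minimum count 10), scaled by TMM and tested over all genes with edgeR 4.0.16 (R 4.3.3; quasi-likelihood test, two-sided, no replicate block), with Benjamini-Hochberg adjustment and calls under 0.05. The SE was taken from the test as the size of the log2 fold change over the root of F. CPM were computed from the deposited counts. DESeq2 1.42.0, limma-voom (limma 3.58.1), other scalings, no filter, a replicate block and left-out libraries were alternatives. At these depths counting error is small beside the spread between libraries. Peaks were matched to RefSeq starts (GRCm38.p6), and motifs were searched in RefSeq promoters on both strands. Exon lengths were not used.

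Members and lists were chosen with earlier results of these data known. Named were every member called, the 3 of each compartment with the largest change, those over 1.5 times the other strained libraries in strain replicate 1, a fixed set of well-known members, at most 6 called genes of each further list, and the 5 genes most like Hsph1. Other members are given by range.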

Additional observations from a re-analysis of the deposited data

How the results depend on the processing

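Depth limits little here other than Hspa1a and Hspa1b, and the spread between libraries sets which members are called. Of 520 member results over 13 alternatives, 462 kept their sign and side of the threshold, 9 lost a call, 20 gained one and 29 changed sign. Members called higher numbered 3, against 9 with no filter, 6 by DESeq2 and 7 without strain replicate 1 and control replicate 3 together, and 1 to 5 with 1 library left out. Members lower numbered 1, against 0 with library size alone and 2 without both libraries, and 0 to 1 with 1 left out. Cytosolic genes higher were 2, against 7 with no filter and 4 by DESeq2 (0 to 3 with 1 left out). ER genes higher were 1, against 2 with library size alone, no filter or DESeq2 and 4 without both libraries (1 to 3), and ER genes lower were 1, against 0 with library size alone and 2 without both (0 to 1). Over all genes 911 were higher and 1134 lower. With no filter 1428 were higher, by DESeq2 1291, and without both libraries 1512 were higher and 1614 lower. With library size alone 1169 were higher and 935 lower, and the median of all genes was 0.05. With 1 left out, 369 to 1085 were higher and 577 to 1244 lower. List medians with 1 library left out were 0.046 to 0.35 (cytosolic), −0.021 to 0.22 (mitochondrial) and 0.040 to 0.090 (ER), and the ER median was 0.17 with library size alone. The shorter heat shock element of 2 units in either order matched 11 members in place of 4. The members' peak counts moved by under 1.5 times in every list; with only peaks of a −log10 q of at least 10 they were 25 and 26 in Piezo1 KO lists and 23 and 28 in GFP lists, while the shares over all genes were 13.4% and 13.4% in Piezo1 KO lists and 11.4% and 21.4% in GFP lists.

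With a replicate block, 6 members were higher (4 cytosolic and 2 ER), and 1557 genes overall. The numbers were not taken to pair the libraries, since same-numbered deviations correlated at 0.0278, 0.208 and 0.0943 over 15335 genes; the hint from the data is only that strain replicates 2 and 3 each correlated best with their own number, and strain replicate 1 did not.

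Signs turned without both libraries for Hsf2 (−0.018), Hsp90aa1 (−0.21), Hspb1 (−0.37), Dnaja1 (−0.0033), Dnajb1 (−0.092), Hspa9 (−0.066), Calr (0.099) and Dnajb9 (−0.13), and with library size alone for Calr (0.0078) and Atf4 (0.020). With 1 library left out, log2 fold changes ranged from −0.31 to 0.27 for Hsp90aa1, −0.51 to 0.76 for Hspb1, −0.29 to 0.059 for Cryab, −0.019 to 0.52 for Dnaja1, −0.12 to 1.27 for Dnajb1, −0.021 to 0.11 for Hspa9, −0.083 to 0.22 for Hspe1, −0.090 to 0.035 for Calr, −0.046 to 0.082 for Pdia4, −0.14 to 0.37 for Dnajb9, −0.12 to 0.041 for Atf4 and −0.42 to 0.015 for Ddit3. The cause of these changes was not tested.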
